A study of Mus musculus with 24 samples.

Results

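The genes described here are 7 subunit genes of the GABA-A receptor, Gabra2, Gabra3, Gabra4, Gabra5, Gabrb1, Gabrb2 and Gabrd, taken by their symbols from the list of 54235 features that each library was counted against. They are 7 of 19 GABA-A receptor subunit genes in that list. The study profiled single cells of mouse primary motor cortex and dorsal striatum around training on a forelimb reaching task. Motor cortex came from Fos-CreER::Ai9 mice and dorsal striatum from Arc-CreER::Ai9 mice, in which 4-hydroxytamoxifen (4-OHT) switches on a permanent label in cells with an active Fos or Arc promoter, so brain region and driver line cannot be told apart. Control mice received 4-OHT and no training, early mice were trained for 2 days and late mice for 8 days, and tissue was taken 3 days after labelling. No sort for the label is described in the sources used here. Each pool joined tissue of 2 mice, and each region had 2 pools per stage, 12 in all, each sequenced as a library per hemisphere. Ages and strain background were not given in the sources used here.

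GABA-A receptors are chloride channels built from 5 subunits around a pore, most often with alpha, beta and gamma subunits. Beta subunits are needed for assembly and form the GABA site together with an alpha subunit, and the alpha subunit sets much of the receptor's kinetics, location and response to benzodiazepines. Receptors with the alpha-2 or alpha-3 subunit (Gabra2, Gabra3) sit mostly at synapses, those with alpha-5 (Gabra5) largely outside them, and the delta subunit (Gabrd), a partner of alpha-4 (Gabra4), takes the place of gamma in receptors outside synapses that carry a steady inhibitory current. In the striatum the spiny projection neurons are GABAergic themselves and receive GABA from each other and from interneurons. Astrocytes, oligodendrocyte precursors and young neurons also respond to GABA.

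The 7 genes lie on 5 chromosomes of the GRCm38 build, each annotated as protein coding. Gabra2 (chr5:70957597-71095849), Gabra4 (chr5:71569749-71658308) and Gabrb1 (chr5:71658113-72149037) are neighbours on chromosome 5, with Gabra4 and Gabrb1 head to head and their gene bodies overlapping by 196 bases. Whether the counting used strand was not given in the sources used here, so it is not known whether reads within that overlap were told apart. The overlap lies at the 5′ ends of both genes, while the libraries are 3′ libraries. Gabra3 (chrX:72432681-72656848) is on chromosome X, Gabra5 (chr7:57407672-57510059) on chromosome 7, Gabrb2 (chr11:42419757-42629028) on chromosome 11 and Gabrd (chr4:155384980-155398112) on chromosome 4. RefSeq promoter windows (GRCm38.p6) were matched for 6 of the 7 genes, and not for Gabrd. Whether the base composition of a promoter has a part in the levels below was not tested. The windows of Gabrb1 and Gabrb2 are not shown. Bases upstream of an annotated start are shown for the 4 alpha genes, whose windows differ in base composition. Each is written 5′ to 3′ on the gene's own strand, the minus strand for all 4, with each CpG (a C followed by a G) in capitals. They span chr5:71095850-71096099 for Gabra2, chrX:72656920-72657169 for Gabra3, chr5:71658364-71658558 for Gabra4 and chr7:57510060-57510309 for Gabra5.
Gabra2: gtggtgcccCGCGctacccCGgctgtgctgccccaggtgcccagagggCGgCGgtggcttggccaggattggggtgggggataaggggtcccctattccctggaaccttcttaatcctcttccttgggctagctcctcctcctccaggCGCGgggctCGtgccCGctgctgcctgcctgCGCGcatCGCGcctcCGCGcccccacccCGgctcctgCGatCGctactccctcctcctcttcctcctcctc
Gabra3: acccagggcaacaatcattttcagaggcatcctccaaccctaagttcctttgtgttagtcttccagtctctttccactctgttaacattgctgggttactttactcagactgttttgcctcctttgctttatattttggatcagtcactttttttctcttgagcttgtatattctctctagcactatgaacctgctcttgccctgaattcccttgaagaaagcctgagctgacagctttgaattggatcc
Gabra4: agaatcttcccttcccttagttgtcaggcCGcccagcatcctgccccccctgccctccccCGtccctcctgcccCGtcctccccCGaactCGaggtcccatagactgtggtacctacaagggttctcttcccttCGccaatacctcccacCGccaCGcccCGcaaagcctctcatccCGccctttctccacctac
Gabra5: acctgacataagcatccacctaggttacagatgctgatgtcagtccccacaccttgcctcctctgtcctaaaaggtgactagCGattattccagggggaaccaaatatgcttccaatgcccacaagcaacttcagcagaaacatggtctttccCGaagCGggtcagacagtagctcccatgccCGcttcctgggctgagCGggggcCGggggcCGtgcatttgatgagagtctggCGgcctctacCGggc
The Gabra2 window held 18 CpG in 250 bases, the Gabra4 window 12 (10 in the 195 bases shown), the Gabra5 window 9 and the Gabra3 window 0. Over 32851 windows of the same length the median was 6, with quartiles of 2 and 16. The activity-regulated motifs of the EGR factors (GCGNGGGCG), of AP-1 (TGANTCA) and of CREB (the CRE, TGACGTCA) were searched on both strands, and no match of 1 in these windows overlaps another. They occurred in 4.7%, 6.75% and 1.55% of those windows. Among the 10 windows of the 6 genes there was 1 match, an EGR motif read as CGCCCTCGC on the gene's plus strand, 232 to 224 bases before 1 of the Gabrb2 starts.

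The libraries held 127901 cell barcodes, of which 98612 were kept as cells, 47985 from motor cortex and 50627 from dorsal striatum. A library held 5260446 to 30470621 unique molecular identifiers (UMIs, counts of captured molecules) and a median of 2048 to 5725 UMIs per cell. Control replicate 1 of dorsal striatum rests on its left hemisphere, since the counts of the right one were not analysed here. Libraries shared cell barcodes at a rate of 1.31 per 1e6 barcode pairs within 4 pools (replicate 1 of control and late in each region), at 0.261 within the other 8 and at 0.024 between them. These sets are called kit class A and kit class B below, since the labels name 2 kit versions without giving them per library. The number of sets was fixed at 2 beforehand. Rates of single library pairs ran from 0.789 to 1.75 within class A, from 0.036 to 0.565 within class B and from 0 to 0.437 between classes. Whether the classes are the kit versions was not tested. Pools came from 6 flow cells with 2 pools each. Cell types were rebuilt by clustering without any GABA-A subunit gene and are called X-like from markers. Of the cells kept, 2541 in motor cortex and 4765 in dorsal striatum stayed unnamed, and the Fezf2 Bcl11b layer 5-like type, with 73 cells and at most 18 in a pool, was too small to compare. Glutamatergic neuron-like cells (17480) were named in motor cortex, and spiny projection neuron-like (21341), neuroblast-like and ependymal-like cells in dorsal striatum.

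A level below is log2 CPM of the UMIs summed over the cells of a type in a pool, with 0.5 counts added, where CPM is counts per 1e6 UMIs. The level is not corrected for differences in capture between genes, so a gene is compared across types and not with another gene. A difference is the log2 estimate of edgeR's quasi-likelihood test, fitted over all genes. It was fitted within pools for cell types and hemispheres and between pools for regions and training stages. A gene is called where the adjusted p is under 0.05. The standard error (SE) beside a difference was derived from the test, as the size of the difference divided by the square root of the F statistic. The pools are the replicates. Between types and hemispheres pool was a block, so p-values there measure how much a within-pool difference varies, with the level shared by a pool removed. Between regions and stages they measure the spread between pools that the other terms of the fit leave. The types come from the same cells, so that most genes can differ between them, and each count is read beside the share of all tested genes that was called. Microglia-like cells were taken as the reference for a low level. The source of their UMIs of a member, free RNA or other, was not tested. Such a UMI was found in 0.0887% (Gabrb2) to 0.621% (Gabrb1) of 10150 microglia-like cells in motor cortex. In dorsal striatum it was found in 0.0204% (Gabrb2) to 0.837% (Gabrd) of 4901. The medians were 1821 and 1829 UMIs per cell.

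Gabra5 was highest in layer 6b-like neurons, Gabra2, Gabra4 and Gabrd were high in spiny neuron-like cells, and Gabrb1 was highest in astrocyte-like cells. Gabra3 was near 0 in D1 spiny-like cells (56 UMIs in 8731 cells) and high in eccentric spiny-like cells. Gabrd was high in Pvalb-like interneurons of both regions and low in striatal Sst-like and cholinergic-like interneurons. Over the 38 types and regions with at least 20 cells in 3 or more pools, the means of each gene spanned 6.78 (Gabrb2) to 8.92 (Gabra5) log2 units.

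**Figure D1:**
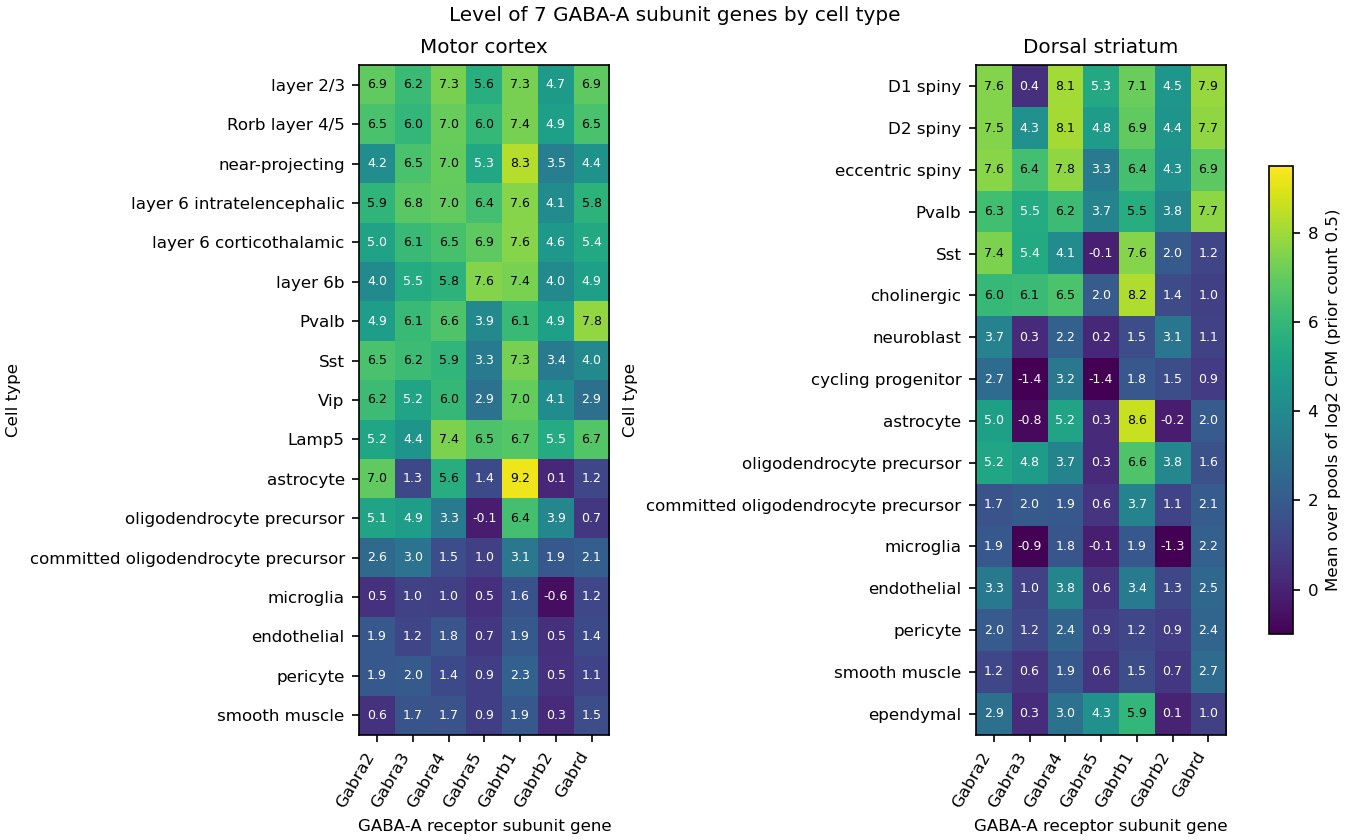
Mean level (log2 CPM, prior count 0.5) of the 7 genes, in columns, for X-like cell types, in rows, of motor cortex (left) and dorsal striatum (right). Each cell of the map prints its mean over pools. Perivascular macrophage-like, fibroblast-like and mature oligodendrocyte-like cells are not drawn. Gabrb1 is highest in astrocyte-like cells, and Gabra5 stands out in layer 6b-like neurons at 7.6.

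Between cortical projection neuron types, each set against layer 2/3-like cells, 30 of 35 pairs of a member and a contrast were called, 10 higher and 20 lower. All 7 members were called for near-projecting-like cells (61.4% of all genes tested), all 7 for layer 6 intratelencephalic-like cells (47.5%), all 7 for layer 6b-like cells (62% of genes), 5 of 7 for layer 6 corticothalamic-like cells (63.3%) and 4 of 7 for Rorb layer 4/5-like cells (36.5%). The count for the corticothalamic-like type was close to its share. Layer 2/3-like cells included a cluster led by Rmst and Thsd7a, and a cluster led by Rspo1 stayed unnamed. Summed corticothalamic markers were 2337 to 2855 CPM in corticothalamic-like cells and 80.7 to 137 CPM in layer 2/3-like cells. They were 826 to 1075 CPM in layer 6b-like cells (6 of 7 detected, Ctxn3 at 0) and 1064 to 1309 CPM in near-projecting-like cells (7 of 7). Their part in the differences between projection neuron types was not tested.

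Gabra5, the alpha subunit of many extrasynaptic receptors, was highest in layer 6b-like and layer 6 corticothalamic-like cells. Its level in the 6 pools ran from 5.39 through a median of 5.57 to 6.08 in layer 2/3-like cells. In layer 6 corticothalamic-like cells it ran from 6.71 (median 6.90) to 7.03, and in layer 6b-like cells from 7.39 (median 7.47) to 7.92. The 3 ranges did not overlap, and every pool had the order layer 2/3, corticothalamic, layer 6b. The differences from layer 2/3-like cells were 1.33 (SE 0.0565, adjusted p = 5.16e-20) and 2.04 (SE 0.0601, adjusted p = 1.64e-24). At least 1 Gabra5 UMI was found in 78.1% of 917 layer 6b-like cells (median 10675 UMIs per cell), beside 0.236% of microglia-like cells. With every cell thinned to 1000 UMIs these shares were 17.8% and 0.0788%. In the order of the 38 Gabra5 levels, layer 6b-like cells were separate from the next type, corticothalamic-like cells, and none of the other 36 neighbouring pairs was separate in its ranges. Layer 6 intratelencephalic-like cells lay between, from 5.89 to 6.65, higher than layer 2/3-like cells by 0.82 (SE 0.0713, adjusted p = 1.81e-12). Near-projecting-like cells, another deep type, were lower by 0.37 (log2 difference -0.37, SE 0.104, adjusted p = 0.00174), a call lost without motor cortex control replicate 2 (-0.26). For Rorb layer 4/5-like cells the difference of 0.31 (SE 0.103, adjusted p = 0.0233) was lost without control replicate 1 (0.21), early replicate 1 (0.28) or late replicate 1 (0.22), and with kit class B pools only (0.13).

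Gabra2, a synaptic alpha subunit, was lower than in layer 2/3-like cells in all 5 types set against them, among them the near-projecting-like cells, where Gabra5 was lower too. Its level in layer 2/3-like cells was 6.75 to 7.12 (median 6.91), against 3.49 to 4.65 (median 4.14) in near-projecting-like and 3.56 to 4.51 (median 4.00) in layer 6b-like cells. Every pool of the latter types lay below every layer 2/3-like pool. Gabra2 fell by 2.88 in near-projecting-like cells (SE 0.115, adjusted p = 6.99e-29) and by 2.74 in layer 6b-like cells (SE 0.102, adjusted p = 9.92e-22). Corticothalamic-like cells, at 4.66 to 5.34, were lower by 1.78 on the log2 scale (-1.78, SE 0.0566, adjusted p = 1.67e-23), and layer 6 intratelencephalic-like cells, at 5.31 to 6.31, by 0.96 (-0.96, SE 0.0607, adjusted p = 2.14e-16). Gabra3, also synaptic, peaked in layer 6 intratelencephalic-like cells at 6.69 to 7.10, above all layer 2/3-like pools (5.89 to 6.49) by 0.75 (SE 0.0518, adjusted p = 2.34e-15). Gabra3 was also called higher in near-projecting-like cells, at 6.20 to 6.69, a range that overlapped that of layer 2/3-like cells. It fell by 0.60 in layer 6b-like cells (SE 0.0864, adjusted p = 3.49e-07), whose range of 5.15 to 5.61 was below that of layer 2/3-like cells.

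Gabra4 and Gabrd, partners in extrasynaptic receptors, were both lower in every type set against layer 2/3-like cells. The Gabra4 level was 7.14 to 7.52 in layer 2/3-like cells and 5.44 to 6.01 in layer 6b-like cells, and it fell by 1.43 there (SE 0.0677, adjusted p = 8e-19). The other 4 Gabra4 differences lay between -0.77 in corticothalamic-like and -0.25 in Rorb layer 4/5-like cells. Gabrd levels ran from 6.47 (median 6.89) to 7.30 in layer 2/3-like cells, from 4.10 to 5.46 in layer 6b-like cells and from 2.92 (median 4.58) to 5.14 in near-projecting-like cells. The ranges of those deep types were wholly below that of layer 2/3-like cells, and Gabrd fell by 2.38 in near-projecting-like (SE 0.11, adjusted p = 3.38e-26) and by 1.77 in layer 6b-like cells (SE 0.0861, adjusted p = 1.63e-18). Gabrb1, a beta subunit, was higher in near-projecting-like cells in 6 of 6 pools, at 7.91 to 8.55 against 7.24 to 7.53, by 0.96 (SE 0.0692, adjusted p = 4.97e-18). The other Gabrb1 differences were at most 0.34, and that for layer 6b-like cells (0.17, adjusted p = 0.0229) was lost with DESeq2 (0.15) and without control replicate 2 (0.13), early replicate 2 (0.16) or late replicate 2 (0.09). Gabrb2, the other beta gene, was 0.99 to 4.48 (median 3.96) in near-projecting-like and 3.11 to 5.6 (median 5.25) in layer 2/3-like cells. These Gabrb2 ranges overlapped, while every pool was lower in the near-projecting-like cells, by -1.27 in the fit (SE 0.146, adjusted p = 6.45e-11).

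**Figure D2:**
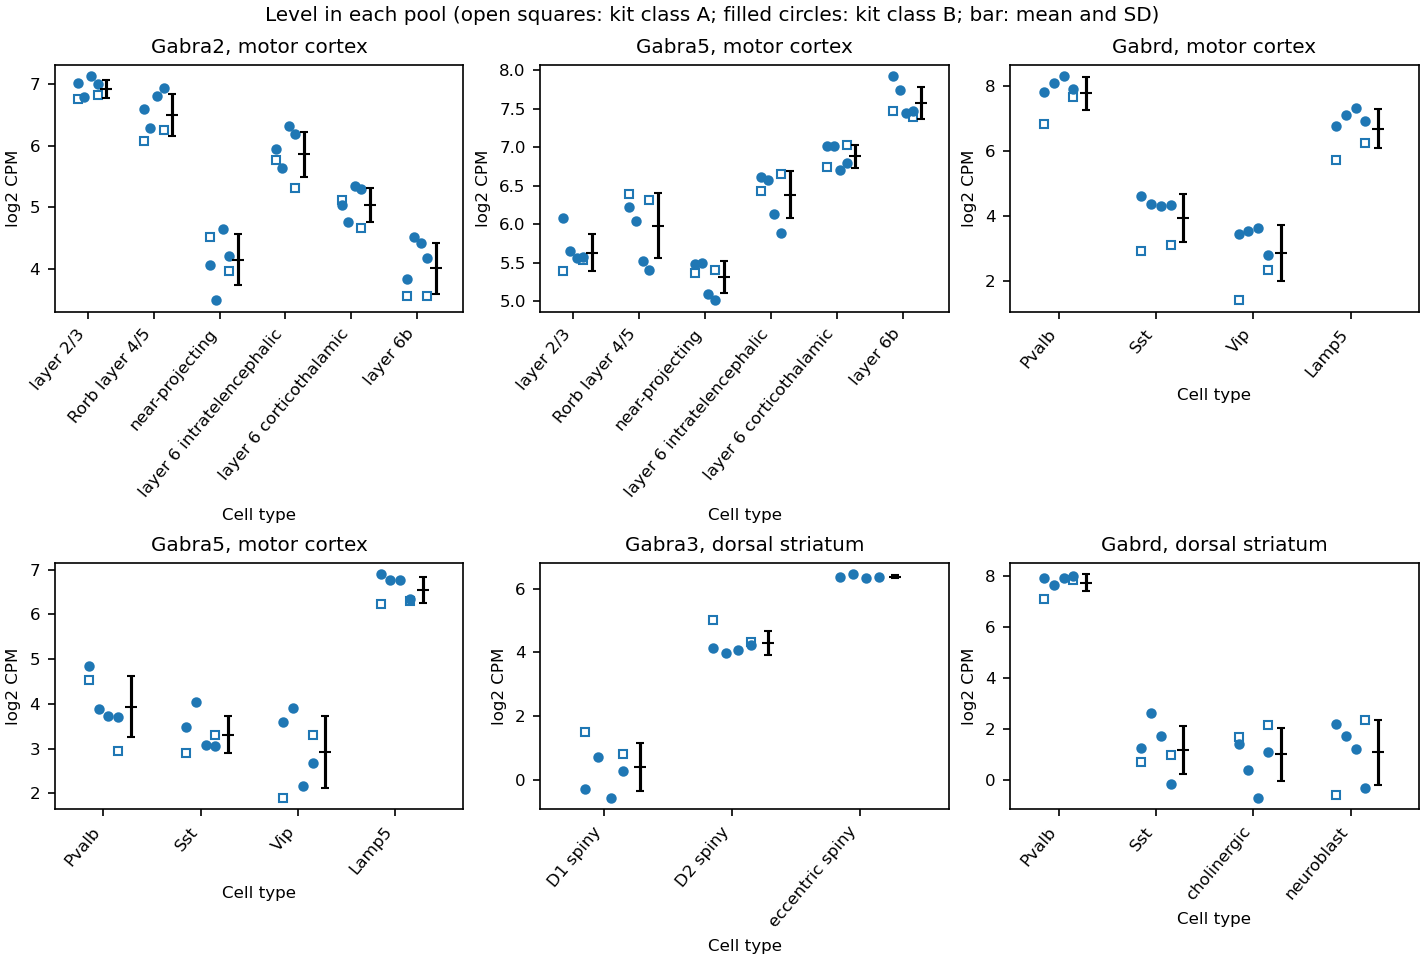
Level (log2 CPM) in each pool for 3 members in motor cortex types and 2 in dorsal striatum types; open squares are kit class A pools, filled circles kit class B pools, and the bar gives mean and SD. Gabra5 in layer 6b-like cells lies at 7.39 to 7.92, and Gabra3 in D1 spiny-like cells at most at 1.5 in the 6 pools.

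Some members differed between the kit classes. Within a region the 2 class A pools are also the 2 pools of 1 flow cell, so kit class and that flow cell cannot be told apart. In types with 6 pools and at least 3 UMIs in each, the class A pools were wholly below the class B pools for Gabrb2 in 9 of 11 types, for Gabrd in 11 of 13, for Gabrb1 in 13 of 24 and for Gabra4 in 11 of 21. The class B pools were wholly below for Gabrb1 and Gabra4 in 1 type each and for Gabrb2 and Gabrd in 0. For Gabra2 class A was wholly below in 5 of 21 types and class B in 0. Gabra3 had class A wholly below in 2 of 17 types and class B in 4, and Gabra5 class A in 2 of 14 and class B in 3. For Gabrb2 class A minus class B ranged from -2.30 to -0.51 log2 units. The types of a region share these pools. The same count was not made over all genes, so these counts do not show whether the members stand out from other genes. The comparisons between types were made within pools, so that both types of a pair share a kit class and flow cell.

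Between motor cortex interneuron types 23 of 26 pairs tested were called, 9 higher and 14 lower. Against Pvalb-like cells, 5 of 6 members tested were called for Sst-like cells (35.9% of all genes), 5 of 6 for Vip-like cells (47.3%) and 6 of 7 for Lamp5-like cells (45% of genes). Gabra5 was too low to be tested for the Sst-like and Vip-like cells. All interneuron-like against all glutamatergic neuron-like cells gave 7 of 7 members called (71.7% of genes), with differences of -1.18 (Gabra5) to 0.27 (Gabrb2). The Gabrb2 call there was lost with DESeq2 (0.22) and without early replicate 1 (0.17) or late replicate 2 (0.19). The summed Sst markers, 8 genes with Npy among them, were 10039 to 14909 CPM in Lamp5-like cells (8 of 8 detected), above their own Lamp5 markers at 3165 to 4027 CPM. In Pvalb-like cells the Sst markers were 1218 to 2480 CPM (7 of 8 detected, Chodl at 0), in Vip-like cells 1625 to 2191 and in Sst-like cells 24157 to 34251 CPM; their part in the differences between these types was not tested. Lamp5-like cells included a cluster of 137 cells led by the microglial genes C1qa and Ccl3, and Vip-like cells a cluster with Rspo1 and Chat as its leading genes.

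Gabrd, the delta subunit, gave the widest split between interneuron types. In Pvalb-like cells, the fast-spiking type, its level ran from 6.85 (median 7.88) to 8.31. In Sst-like cells it ran from 2.91 (median 4.34) to 4.62, and in Vip-like cells from 1.40 (median 3.12) to 3.64. Neither range overlapped that of Pvalb-like cells, and Gabrd fell by 3.71 in Sst-like (SE 0.142, adjusted p = 1.18e-20) and by 4.76 in Vip-like cells (SE 0.13, adjusted p = 6.54e-28). Lamp5-like cells, which include neurogliaform cells, stayed closer, at 5.72 to 7.33. Their range overlapped that of Pvalb-like cells, every pool was lower, and the difference was -1.10 (SE 0.0857, adjusted p = 1.49e-13). A Gabrd UMI was found in 75.6% of 279 Pvalb-like, 11.3% of 522 Sst-like and 4.52% of 2148 Vip-like cells, beside 0.424% of microglia-like cells. At 1000 UMIs per cell the shares were 21.1%, 3.07%, 0.978% and 0.148%.

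Among the alpha genes, Gabra5 was higher in Lamp5-like cells. Its level was 6.24 to 6.90 (median 6.55) there and 2.95 to 4.85 (median 3.81) in Pvalb-like cells, without overlap, a difference of 2.63 (SE 0.181, adjusted p = 5.67e-15). Gabra3 was lowest in Lamp5-like cells, at 4.32 to 4.58, against 5.95 to 6.25 in Pvalb-like cells (difference -1.73, SE 0.149, adjusted p = 2.28e-12). Gabra4 was higher in Lamp5-like cells in 6 of 6 pools, at 7.14 to 7.64 against 6.21 to 6.97, by 0.83 (SE 0.107, adjusted p = 3.56e-08), and lower in Sst-like (-0.63) and Vip-like cells (-0.57). Gabra2 was higher in Sst-like cells, at 5.78 to 7.09 against 2.29 to 5.68 in Pvalb-like cells, by 1.41 (SE 0.202, adjusted p = 7.07e-07). In Vip-like cells Gabra2 was higher than in Pvalb-like cells by 1.13 (SE 0.195, adjusted p = 6.85e-06) and Gabra3 lower (-1.01, SE 0.136, adjusted p = 6.96e-08), both without overlap, while Gabrb2 differed by -0.29 (SE 0.219, adjusted p = 0.298). The low Gabra2 end in Pvalb-like cells is 1 pool, and the median of the 6 was 5.39. Gabrb1 was higher in Sst-like cells by 1.24 (SE 0.118, adjusted p = 1.38e-10) and in Vip-like cells by 0.92 (SE 0.109, adjusted p = 3.26e-09), with no overlap with Pvalb-like cells in either. Gabrb2 was lower in Sst-like than in Pvalb-like cells in 6 of 6 pools, by -1.05 (SE 0.249, adjusted p = 0.000947), with overlapping ranges.

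In dorsal striatum, 35 of 39 pairs tested over 7 contrasts of neuron types were called, 11 higher and 24 lower. Between D2 spiny-like and D1 spiny-like cells, the neurons of the indirect and direct pathways, 5 of 7 members were called (28.9% of all genes), and 1 of them, Gabra3, by more than 0.45 log2 units. Between eccentric spiny-like and D1 spiny-like cells 6 of 7 were called (42.8%).

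Gabra3 separated the 3 spiny types. In D1 spiny-like cells its level was -0.57 to 1.5 (median 0.50), in D2 spiny-like cells 3.99 to 5 (median 4.18) and in eccentric spiny-like cells, compared in 4 pools, 6.34 to 6.45 (median 6.35). No range touched another. The D2 minus D1 difference in Gabra3 was 3.89 (SE 0.141, adjusted p = 1.48e-24), 14.8-fold, and the eccentric minus D1 difference 6.22 (SE 0.161, adjusted p = 5.31e-23). D1 spiny-like cells gave 56 Gabra3 UMIs in 8731 cells, D2 spiny-like cells 860 in 9965. A Gabra3 UMI was found in 0.607% of D1 spiny-like, 7.67% of D2 spiny-like and 37.8% of eccentric spiny-like cells (medians of 4584, 4183 and 5833 UMIs per cell), beside 0.0612% of microglia-like cells. Thinned to 1000 UMIs these shares were 0.137%, 1.92%, 9.26% and 0.0204%, and the D1 share was then no longer above the range of microglia-like pools. The summed D2 markers stood at 83.3 to 296 CPM in D1 spiny-like cells and 6994 to 13917 CPM in D2 spiny-like cells, with all 6 markers detected in both; their part in the D1 level of Gabra3 was not tested. Eccentric spiny-like cells carried summed D1 markers of 5219 to 6422 CPM, beside 4486 to 5551 CPM in D1 spiny-like cells, and D2 markers of 1364 to 1594 CPM. The summed eccentric markers that gave them their name were lower, at 651 to 712 CPM, against 23.1 to 36.1 CPM in D1 and 15.1 to 47.7 CPM in D2 spiny-like cells. The part of D1 and D2 markers in the eccentric differences was not tested. Of the 6 pools of eccentric spiny-like cells, the 2 of kit class A held too few cells to be used.

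The other subunits differed little between D1 and D2 spiny-like cells. Gabra5 was lower in D2 spiny-like cells in 6 of 6 pools, at 4.57 to 5.04 against 4.96 to 5.47, by -0.45 (SE 0.0552, adjusted p = 1.64e-08). Gabrb1 differed by -0.15 (SE 0.0315, adjusted p = 0.000168), Gabra4 by 0.08 (SE 0.0227, adjusted p = 0.00755) and Gabrd by -0.07 (SE 0.0261, adjusted p = 0.0329). The Gabra4 call was lost with DESeq2 (0.08), and that of Gabrd with DESeq2 (-0.08), with kit class B pools only (-0.05) and without any of 3 pools, control replicate 1 (-0.05), early replicate 1 (-0.08) or early replicate 2 (-0.06). Gabra2, at 7.10 to 7.93 against 7.12 to 7.88, differed by 0.04 (SE 0.0257, adjusted p = 0.258), and Gabrb2 by 0.03 (SE 0.0573, adjusted p = 0.797). Eccentric spiny-like cells had less Gabra5, at 2.69 to 3.56 against 4.96 to 5.40 in the D1 spiny-like cells of the same 4 pools (-2.05, SE 0.155, adjusted p = 4.49e-12). They also had less Gabrd, at 6.62 to 7.05 against 7.87 to 8.05 (-1.14, SE 0.0682, adjusted p = 2.31e-14). Gabrb1, Gabrb2 and Gabra4 were lower there by 0.83, 0.86 and 0.46 (log2 differences of -0.83, -0.86 and -0.46), each without overlap of ranges. Gabra2 differed by -0.06 (SE 0.0519, adjusted p = 0.388).

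Striatal interneuron-like against spiny projection neuron-like cells gave 7 of 7 members called (77.4% of genes), Gabra3 and Gabrb1 higher and the other 5 lower. Gabra4 showed the largest of these differences, at 5.32 to 5.89 against 7.69 to 8.26, a fall by 2.34 (log2 difference -2.34, SE 0.0653, adjusted p = 6.98e-23). Pvalb-like against Sst-like interneurons gave 4 of 5 members called (48.3%), and cholinergic-like against Sst-like interneurons 4 of 4 (45.4%). Gabra5 and Gabrb2 were too low to be tested in both contrasts, and Gabrd in the second. Gabrd again split the types: 7.08 to 7.97 (median 7.87) in Pvalb-like and -0.16 to 2.61 (median 1.11) in Sst-like cells, whose 614 cells gave 9 Gabrd UMIs. The Pvalb minus Sst difference in Gabrd was 6.46 (SE 0.218, adjusted p = 1.42e-24). A Gabrd UMI was found in 63.3% of Pvalb-like cells and 1.3% of Sst-like cells, the latter within the range of microglia-like pools. Cholinergic-like interneurons, the large tonically active type, gave 6 Gabrd UMIs in 224 cells. Summed Lamp5 markers were 693 to 1156 CPM in striatal Pvalb-like cells (6 of 7 detected, Reln at 0), 740 to 899 CPM in cholinergic-like and 34.3 to 48.7 CPM in Sst-like cells (6 of 7 in each, Cplx3 at 0). Sst markers were 182 to 338 CPM in Pvalb-like (7 of 8 detected, Chodl at 0), 564 to 670 CPM in cholinergic-like and 53881 to 70146 CPM in Sst-like cells (8 of 8 in each). Their part in the differences between striatal interneuron types was not tested.

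Sst-like interneurons of the striatum had more Gabra2 than the other interneuron types there. Gabra2 was 6.66 to 8.09 in Sst-like, 5.80 to 6.92 in Pvalb-like and 5.56 to 6.60 in cholinergic-like cells, and it was lower than in Sst-like cells by -1.28 (SE 0.102, adjusted p = 1.59e-13) and -1.53 (SE 0.123, adjusted p = 2.24e-15). Gabrb1 was 7.14 to 8.08 in Sst-like and 5.23 to 5.80 in Pvalb-like cells (difference -2.30, SE 0.112, adjusted p = 1.05e-19). In cholinergic-like cells Gabrb1 reached 7.34 to 8.92, higher than in Sst-like cells in 6 of 6 pools by 0.48 (SE 0.104, adjusted p = 0.000131). Gabra4 was lowest in Sst-like cells, at 3.01 to 4.66. It was higher in Pvalb-like cells (5.92 to 6.68) by 1.87 (SE 0.178, adjusted p = 2.04e-11) and in cholinergic-like cells (6.02 to 7.05) by 2.25 (SE 0.189, adjusted p = 9.46e-15). Gabra3 was higher in cholinergic-like than in Sst-like cells by 0.53 (SE 0.154, adjusted p = 0.00382), a call lost with DESeq2 (0.56).

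Neuroblast-like cells, the young neurons of the dissection, had little of every member. Against spiny projection neuron-like cells 7 of 7 members were called, all lower (82.3% of genes; of the 10949 called genes 5109 were higher). The falls ran from -1.07 for Gabrb2 (SE 0.15, adjusted p = 7.94e-08) to -6.36 for Gabrd (SE 0.184, adjusted p = 1.55e-25), where 4490 neuroblast-like cells gave 21 UMIs. The Gabrb2 level was 0.98 to 4.22 (median 3.87) in neuroblast-like and 2.76 to 5.27 (median 4.98) in spiny projection neuron-like cells, with overlapping ranges. A Gabrb2 UMI was found in 2.34% of neuroblast-like cells, beside 0.0204% of microglia-like cells, the one member whose share lay above the range of microglia-like pools. Gabra2 was 2.73 to 4.51 (126 UMIs), while Gabra3 and Gabra5 gave 7 UMIs each. Between cycling progenitor-like and neuroblast-like cells only Gabra2 and Gabra4 were high enough to be tested, and 2 of 2 were called (71.9% of genes). Gabra2 was lower in the cycling cells, at 1.76 to 3.40 (-1.02, SE 0.216, adjusted p = 3.91e-05), a call lost with a stricter cell filter (-0.51). Gabra4 was higher, at 2.84 to 3.40 against 0.98 to 2.94 (0.92, SE 0.265, adjusted p = 0.00175), and turned to -0.53 when suspected doublets were kept. Summed astrocyte markers were 426 to 771 CPM in cycling progenitor-like and 113 to 182 CPM in neuroblast-like cells (9 of 9 detected in both), and GABAergic interneuron markers 173 to 257 and 898 to 1354 CPM (10 of 10 in both); their part in these differences was not tested.

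Among glia, astrocyte-like cells carried the highest Gabrb1 of all types. The level ran from 8.85 (median 9.29) to 9.37 in motor cortex and from 7.77 (median 8.86) to 8.99 in dorsal striatum. A Gabrb1 UMI was found in 60.1% of 2977 and 54.2% of 3236 astrocyte-like cells (medians of 1696 and 1934 UMIs per cell), beside 0.621% and 0.653% of microglia-like cells. Oligodendrocyte precursor-like cells had Gabrb1 at 5.83 to 6.83 and 6.20 to 6.96, without overlap with astrocyte-like cells, and the difference was -2.97 in motor cortex (SE 0.113, adjusted p = 1.16e-31) and -2.38 in dorsal striatum (SE 0.109, adjusted p = 4.38e-19). Over all members, 4 of 4 tested were called between these types in motor cortex (66.1% of genes) and 3 of 4 in dorsal striatum (61.8% of genes). Gabra5, Gabrb2 and Gabrd were too low to pass the filter on low counts. Gabrb2 was still found in precursor-like cells, at 8.02% and 7.72% of their beta UMIs in motor cortex and dorsal striatum. In astrocyte-like cells its share was 0.025% and 0.111%. Without that filter, or with kit class B pools only, 9 pairs were called over both regions in place of 7. Summed glutamatergic neuron markers were 94.5 to 222 CPM in motor cortex astrocyte-like cells and 141 to 309 CPM in microglia-like cells, all 8 of 8 detected in both. Summed spiny projection neuron markers were higher in astrocyte-like cells, at 262 to 632 CPM (8 of 11 detected, with Drd1, Drd2 and Tac1 at 0) against 16.7 to 35 CPM in microglia-like cells of motor cortex, and 290 to 696 against 132 to 541 CPM in dorsal striatum. Their part in the astrocyte-like levels was not tested.

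Gabra3 was found in oligodendrocyte precursor-like cells and hardly in astrocyte-like cells. In motor cortex its level was 4.69 to 5.17 against -0.19 to 3.28, where 10 UMIs came from 2977 astrocyte-like cells and 2 pools had none (difference 3.77, SE 0.348, adjusted p = 1.34e-14). In dorsal striatum 2665 precursor-like cells gave 188 Gabra3 UMIs and 3236 astrocyte-like cells gave 1, a ratio of 211 in pooled CPM, with an exact 95% interval for counting error of 37.4 to 8376. The fit over pools, which depends on its prior count where so few UMIs were found, gave 6.70 (SE 0.479, adjusted p = 5.83e-14), 104-fold, with 6 of 6 pools higher. Summed GABAergic interneuron markers moved the same way, at 421 to 500 CPM in precursor-like and 31.5 to 64.5 CPM in astrocyte-like cells of motor cortex (9 of 10 detected in both, Lhx6 at 0) and 386 to 544 and 61 to 148 CPM in dorsal striatum (9 of 10 in both, Vip at 0); their part in the Gabra3 difference was not tested. Gabra4 was lower in precursor-like cells in both regions, by -2.55 (SE 0.192, adjusted p = 4.64e-18) and -1.73 (SE 0.202, adjusted p = 5.38e-09), with 6 of 6 pools lower in each. Gabra2 depended on the region. Precursor-like cells had 4.71 to 5.74 and astrocyte-like cells 6.53 to 7.42 in motor cortex (-2.03, SE 0.131, adjusted p = 6.79e-21), while in dorsal striatum the ranges of 4.75 to 5.91 and 4.51 to 5.43 overlapped (0.03, SE 0.156, adjusted p = 0.882). Ependymal-like cells had Gabra5 at 3.16 to 5.68 and Gabrb1 at 5.65 to 6.22, with a Gabra5 UMI in 5.96% of 956 cells beside 0.122% of microglia-like cells. No microglia-like, macrophage-like or vascular type of either region gave more than 64 UMIs of a member.

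**Figure D3:**
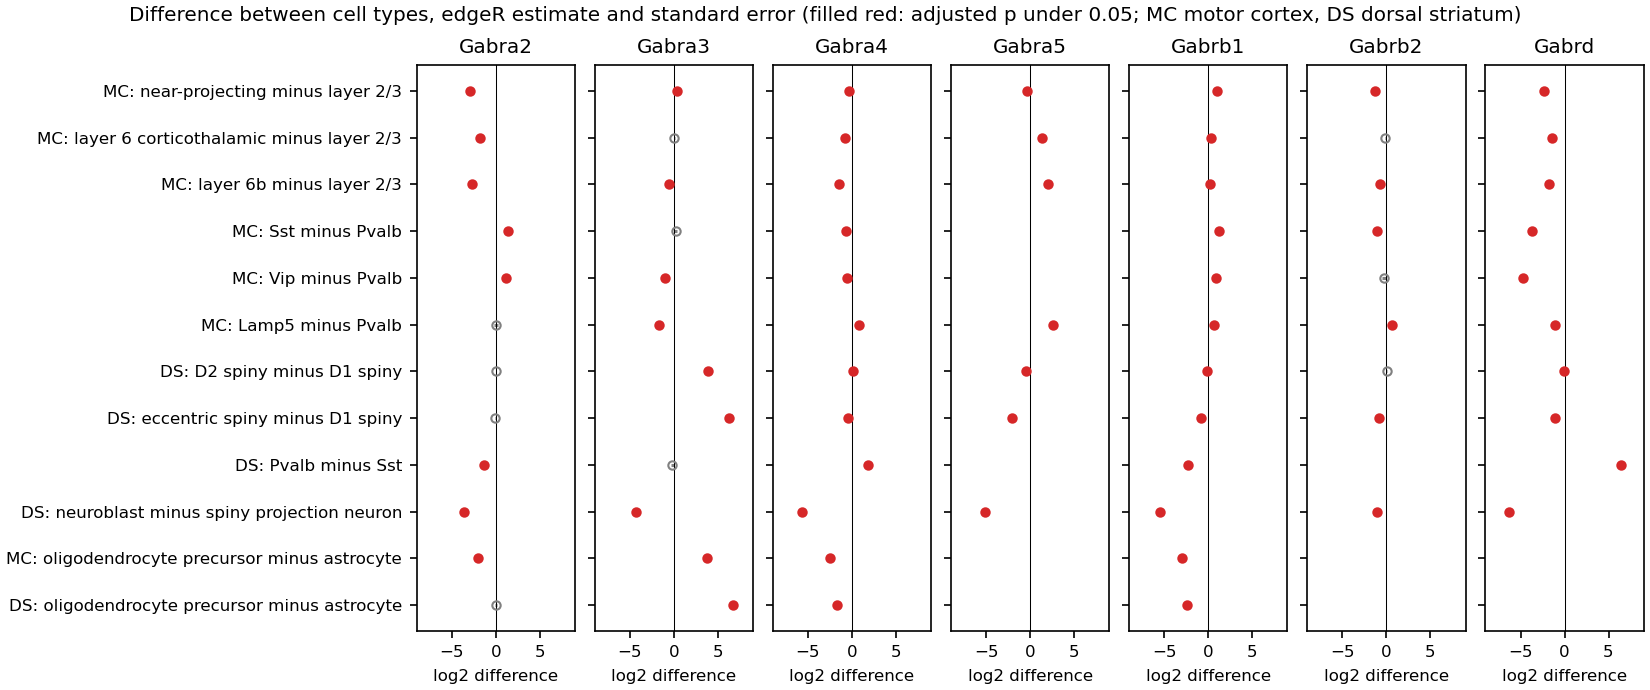
Difference between cell types (log2, edgeR estimate with SE as a bar) for the 7 members, 1 panel each, in 12 contrasts; filled red points have an adjusted p under 0.05, open points do not, and a missing point was too low to test. Gabrd spans the widest range from lowest to highest, -6.36 for neuroblast minus spiny projection neuron to 6.46 for Pvalb minus Sst in dorsal striatum, and the highest single point is Gabra3 at 6.70 for oligodendrocyte precursor minus astrocyte in dorsal striatum.

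As shares of all UMIs of a subunit class, the members' part of the alpha mix differed between cell types. These shares are not corrected for differences in capture between genes, so they compare types and do not count receptors. In D1 spiny-like cells Gabra4 gave 44.1 ± 2.63% (SD, n = 6 pools) of the alpha UMIs and Gabra2 31.3 ± 3.83%, against 18 ± 0.889% and 13.5 ± 1.15% in layer 2/3-like cells. Gabra5 made up 27.8 ± 2.54% of the alpha UMIs in layer 6b-like and 5.55 ± 0.605% in layer 2/3-like cells. Gabra3 was 13.8 ± 1.11% (n = 4) in eccentric spiny-like and 3.32 ± 1.34% in D2 spiny-like cells. Striatal Sst-like interneurons had 59.3 ± 5.78% Gabra2, where Pvalb-like interneurons of the same region had 13 ± 2.25%. Oligodendrocyte precursor-like cells of motor cortex and dorsal striatum had Gabra2 at 35.4 ± 6.09% and 35.9 ± 6.72% and Gabra3 at 29.8 ± 2.92% and 27.0 ± 7.90%.

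Of the beta UMIs, Gabrb1 made up 99.3 ± 0.641% in motor cortex and 96.1 ± 1.74% in dorsal striatum astrocyte-like cells. It was 73.7 ± 4.34% in striatal Sst-like and 68.7 ± 3.32% in cholinergic-like interneurons, 63.0 ± 3.27% in near-projecting-like and 37.9 ± 3.45% in layer 2/3-like cells. It was 30.1 ± 2.68% over spiny projection neuron-like cells, 19.2 ± 2.63% in striatal Pvalb-like and 2.89 ± 1.72% in neuroblast-like cells. Gabrb2 made up at most 15.5 ± 6.43%, in Lamp5-like cells, and its level was among those that differed between kit classes.

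**Figure D4:**
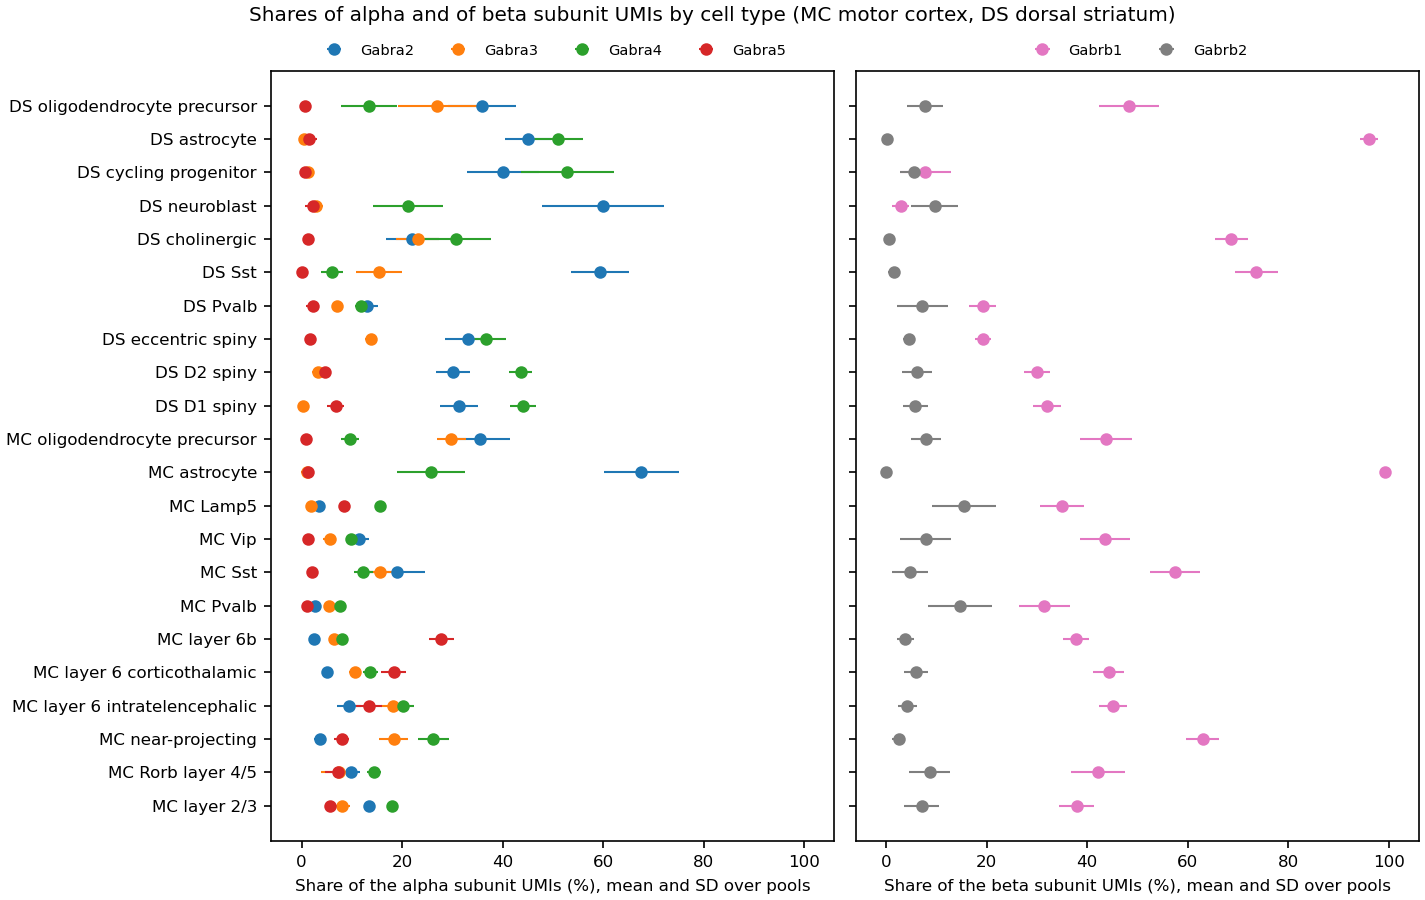
Share (%, mean over pools, bars SD) of each alpha member among all alpha subunit UMIs (left) and of each beta member among all beta subunit UMIs (right) for neuron and glial types of motor cortex (MC) and dorsal striatum (DS); each point is 1 gene in 1 type. Gabrb1 stands at 99.3% and 96.1% in astrocyte-like cells, and Gabra4 at 44.1% in D1 spiny-like cells.

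Between regions, interneuron-like cells differed in 6 of 7 members (36.4% of genes), astrocyte-like cells in 2 of 3 tested (31% of genes) and oligodendrocyte precursor-like cells in 0 of 5 (1.54% of genes; 1 of the 5 at an unadjusted p under 0.05 and 0 called by DESeq2). The differences in precursor-like cells ran from 0.06 for Gabra3 (SE 0.178, adjusted p = 0.963) to 0.54 for Gabra4 (SE 0.248, adjusted p = 0.446), with Gabra2 at 0.27, Gabrb1 at 0.17 and Gabrb2 at 0.16. The interneuron-like classes hold other types in each region, Vip-like and Lamp5-like cells in motor cortex and cholinergic-like cells in dorsal striatum, so their makeup differs; its part in these differences was not tested. Gabra5 was 2.87 to 3.57 in striatal and 4.83 to 5.66 in cortical interneuron-like cells (dorsal striatum minus motor cortex -2.01, SE 0.161, adjusted p = 2.12e-08). Within the 2 flow cells that held both regions, 1 pool each, it was -2.37 and -1.53. Gabra4 was lower in striatum without overlap (-0.92, SE 0.0813, adjusted p = 7.51e-08; -1.11 and -0.91 within flow cells) and Gabrb2 lower with overlap (-1.80, SE 0.208, adjusted p = 2.09e-06; -1.51 and -2.67). Gabra2 (1.02, SE 0.147; 0.76 and 0.53 within flow cells), Gabrb1 (0.73, SE 0.0973; 0.64 and 0.85) and Gabra3 (0.48, SE 0.0979; 0.43 and 0.65) were higher in striatum. Gabrd differed by -0.02 (SE 0.121, adjusted p = 0.896; -0.35 and -0.09 within flow cells).

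In astrocyte-like cells Gabra2 was 4.51 to 5.43 in dorsal striatum and 6.53 to 7.42 in motor cortex, with no overlap and a difference of -1.86 (SE 0.176, adjusted p = 3.67e-09). Within flow cells the Gabra2 difference was -2.38 and -2.20. The summed glutamatergic neuron markers of these cells were 42.5 to 146 CPM in dorsal striatum and 94.5 to 222 CPM in motor cortex, and spiny neuron markers 290 to 696 and 262 to 632 CPM; their part in the result was not tested. Gabrb1 was lower in dorsal striatum by -0.54 (SE 0.153, adjusted p = 0.00788; -0.34 and -0.43 within flow cells), a call lost without the kit term (-0.52). Gabra4 differed by -0.41 (SE 0.169, adjusted p = 0.0685; 0.17 and -0.59 within flow cells). The difference between regions in a contrast of types was tested as an interaction, a test added after the other fits were seen. For oligodendrocyte precursor-like minus astrocyte-like cells 4 of 5 members were called (18.8% of genes), with Gabra2 at 2.14 (SE 0.202, adjusted p = 1.42e-12). For Sst-like minus Pvalb-like interneurons 3 of 6 were called (23.4% of genes), with Gabrd at -2.79 (SE 0.395, adjusted p = 1.97e-07). The summed markers of these interneuron types differed between regions, and their part was not tested.

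Training stage was compared within each class of cells, with the kit class in the fit, which leaves 2 residual degrees of freedom. No member was called. In motor cortex this was 0 of 22 pairs of a member and a class each for early minus control (0.0308% of all genes and classes tested), late minus control (0.0889%) and late minus early (0.0148%), with 1, 2 and 1 pairs at an unadjusted p under 0.05. In dorsal striatum it was 0 of 31 pairs each (0.0586%, 0.0449% and 0.0412%), with 3, 2 and 4 at an unadjusted p under 0.05. DESeq2 called 0 in each. These 3 comparisons share their pools within a region. Contralateral minus ipsilateral libraries of the trained pools gave 0 of 20 pairs in motor cortex (0.0632%; 1 at an unadjusted p under 0.05) and 0 of 25 in dorsal striatum (0.014%; 0 at an unadjusted p under 0.05), and DESeq2 again called 0. The share of genes called is itself near 0 here, so that these counts say little about the members.

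The smallest adjusted p among the stage and hemisphere fits was 0.489, for Gabra2 and Gabrb2 in spiny projection neuron-like cells, late minus early. Gabra2 in these cells was 7.33 and 7.55 in the control pools, 7.86 and 7.91 in the early pools and 7.10 and 7.57 in the late pools. The early pools lay above the others, and the differences were 0.40 for early minus control (SE 0.164, adjusted p = 0.999) and -0.46 for late minus early (SE 0.157, adjusted p = 0.489). In striatal interneuron-like cells Gabra2 was 6.49 and 6.75 in control, 7.16 and 7.53 in early and 6.32 and 6.89 in late pools, again with both early pools above the rest. Their early minus control difference of 0.65 (SE 0.21, adjusted p = 0.598) passed the threshold without dorsal striatum control replicate 1 (0.84, adjusted p = 0.0447), late replicate 1 (0.84, adjusted p = 0.0437) or late replicate 2 (0.84, adjusted p = 0.0441). With kit class in the fit all 3 come down to the same comparison, the 2 early pools against control replicate 2 alone (6.49), with a spread that comes from the early pools. The late minus early difference in Gabra2 of -0.64 (SE 0.201, adjusted p = 0.752) did so without early replicate 2 (-0.80, adjusted p = 0.0427), where the early arm is 1 pool (7.53) and the spread comes from the control and late pools. Each of these assumes that the lone pool varies like the others. Within the flow cell that held dorsal striatum control replicate 2 and early replicate 1, Gabra2 was higher in the early pool in 10 of 11 types, with a median difference of 0.77. The largest of these differences, 1.35, was in microglia-like cells (2.49 from 12 UMIs against 1.14 from 4). The part of free RNA in these differences was not tested. Within the motor cortex flow cell with control replicate 2 and early replicate 1 Gabra2 was higher in 3 of 12, with a median of -0.28. Counts this one-sided also arose for other members. Between control replicate 1 and late replicate 1, Gabrb1 was lower in the late pool in 14 of 14 motor cortex types and Gabra3 in 6 of 6 striatal types. Gabra2 was lower there in 9 of 12 striatal types. The types of a pair of pools are not replicates, since each count rests on 1 pool against 1. In motor cortex, Gabrb2 in interneuron-like cells passed, late minus control, without control replicate 1 (0.90) or late replicate 1 (0.91), both kit class A pools. Both are the same comparison of 1 pool with 1, late replicate 2 (5.87) with control replicate 2 (4.99), with a spread taken from the early pools only. The 2 class A pools share a flow cell, and there Gabrb2 was lower in the late pool in 7 of 8 types, with a median difference of -0.76.

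**Figure D5:**
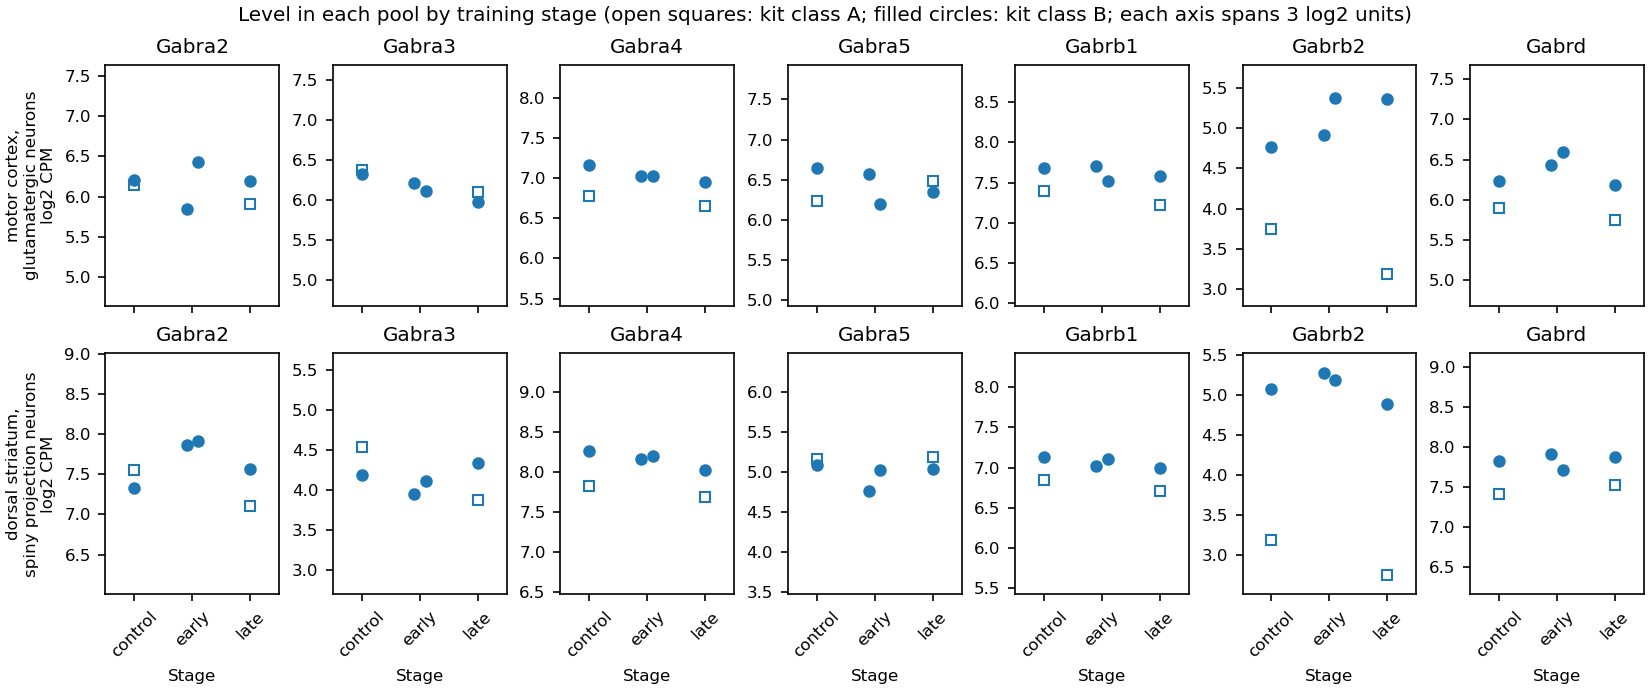
Level (log2 CPM) in each pool by training stage for the 7 members in motor cortex glutamatergic neuron-like cells (top) and dorsal striatum spiny projection neuron-like cells (bottom); open squares are kit class A pools, filled circles kit class B pools, and each axis spans 3 log2 units. The 2 early Gabra2 pools of dorsal striatum (7.86 and 7.91) lie highest in their panel, and both class A pools of Gabrb2 lie below all class B pools in both regions.

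The other genes of GABA signalling were read from 4 lists in 5 contrasts. Of the 12 other subunit genes, 5 were tested between D2 and D1 spiny-like cells, with 3 higher and 0 lower (median 0.09 beside 0.01 over all genes, 28.9% called), led by Gabrg3, a gamma subunit (0.32, adjusted p = 1.8e-09). Between corticothalamic-like and layer 2/3-like cells 1 of 5 was higher, Gabrg3 (1.07, adjusted p = 1.22e-16), and 3 lower (median -0.26 beside 0.02, 63.3% called). Between Sst-like and Pvalb-like cells of motor cortex 0 of 5 were higher and 3 lower (median -1.30 beside 0.01, 35.9% called). Between oligodendrocyte precursor-like and astrocyte-like cells 3 of 4 were higher and 1 lower in motor cortex (median 1.66 beside 0.10, 66.1% called) and 2 higher and 1 lower of 4 in dorsal striatum (median 1.35 beside -0.06, 61.8% called). Gabrg1, another gamma subunit, was lower there in both regions (-1.50, adjusted p = 1.05e-15, and -1.40, adjusted p = 2.77e-12). Among 22 genes of receptor anchoring and trafficking, the higher and lower counts were 10 and 4 of 21 tested for D2 minus D1 (median 0.06; 28.9% of all genes called), 8 and 7 of 21 for corticothalamic minus layer 2/3 (median 0.02; 63.3%) and 5 and 5 of 21 for Sst minus Pvalb (median -0.11; 35.9%). For precursor minus astrocyte they were 13 and 4 of 19 in motor cortex (median 0.66; 66.1%) and 11 and 4 of 19 in dorsal striatum (median 0.58; 61.8%), led by the synaptic adhesion gene Igsf9b (5.48 and 5.87).

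Of 13 genes of GABA synthesis and transport and of chloride transport, 5 of 11 tested were higher and 2 lower in D2 spiny-like cells (median 0.09 beside 0.01 over all genes, 28.9% called). Gad1, which makes GABA, was higher by 0.38 (adjusted p = 5.44e-17). In corticothalamic-like cells 5 of 11 were higher and 2 lower (median 0.15 beside 0.02, 63.3% called), with the potassium-chloride cotransporter Slc12a5 at -1.12 (adjusted p = 2.53e-21) and the GABA transporter Slc6a11 at 2.18 (adjusted p = 1.88e-18). In Sst-like against Pvalb-like cells 1 of 11 was higher and 7 lower (median -0.33 beside 0.01, 35.9% called), with Gad1 at -0.65 (adjusted p = 1.34e-08). Between precursor-like and astrocyte-like cells 5 were higher and 4 lower of 11 in motor cortex (median 0.73 beside 0.10, 66.1% called) and 4 and 4 of 10 in dorsal striatum (median -0.20 beside -0.06, 61.8% called), and Slc6a11 was lower in precursor-like cells (-4.13 and -3.18). Of the 6 GABA-B receptor genes, 2 of 5 were higher and 0 lower for D2 minus D1 (median 0.04; 28.9% of all genes called), 1 and 4 of 5 for corticothalamic minus layer 2/3 (median -0.93; 63.3%) and 3 and 1 of 4 for Sst minus Pvalb (median 0.70; 35.9%). For precursor minus astrocyte they were 1 and 2 of 4 in motor cortex (median -0.20; 66.1%) and 1 and 1 of 3 in dorsal striatum (median -0.25; 61.8%). Kctd12, a GABA-B auxiliary subunit, was higher in Sst-like cells by 2.14 (adjusted p = 7.67e-09).

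Across the means of the 38 types, which share libraries and differ in depth, the gene most like Gabra4 was Atp2b2, a calcium pump (Pearson r = 0.957), that most like Gabrd was Kcnj4, a potassium channel (0.956), and that most like Gabrb1 was Kcnk1, another potassium channel (0.948). Gabra3 was nearest to Clec2l (0.925), Gabrb2 to Map3k13 (0.921), Gabra5 to Phyhip (0.894) and Gabra2 to Rhobtb2 (0.889). Among the members themselves, Gabra2 and Gabra4 were most alike (0.867) and Gabrb1 and Gabrd least (0.423). In the order of levels, the ranges of neighbouring types overlapped for all pairs of Gabra2, Gabra3, Gabrb1, Gabrb2 and Gabrd, and 1 of 37 pairs was separate for Gabra4, astrocyte-like above Sst-like cells of dorsal striatum.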

How the data were processed

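Gene counts were measured in single cells by 10x 3′ libraries, with 23 count matrices from 12 pools used here. The authors made the deposited UMI counts with Cell Ranger 3.1.0 against GRCm38/mm10, per the submitters' processing notes, while the matrices carry software_version 3.0.2, per the file headers. The values are raw counts per gene and cell, at 5260446 to 30470621 per library. The kit version was not given per library. Libraries were split into 2 classes by shared barcodes, and no class was assigned a version.

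A minimum of 500 genes and 1000 UMIs and a maximum of 20% mitochondrial counts left 103715 cells, and 5103 suspected doublets were removed. Cells were clustered (scanpy 1.11.5, leidenalg 0.10.2, 2000 variable genes, 40 components, resolution 1.5 and then 1.0) with every GABA-A subunit gene left out, and named from markers. The naming rules were adjusted after the clusters, but not the subunit levels of the named types, had been seen. Counts were summed per pool and type with at least 20 cells. Differences were tested with edgeR 4.0.16 (TMM, filterByExpr, quasi-likelihood test, Benjamini-Hochberg over all genes tested) in R 4.3.3, with pool as a block between types, stage and kit class between regions, and kit class between stages. DESeq2 1.42.0, RLE factors, no filter on low counts, stricter cells, kept doublets, other cluster resolution, kit class B alone and leaving out each pool were the alternatives. The rule for named genes took all 7 members in every comparison, printed as counts where values would repeat, and at most 3 called genes per pathway list with the smallest adjusted p. Members and lists were chosen with earlier results of these data known. Replicate numbers follow accession order and were not used to pair pools; replicate 1 of control and late share a flow cell and kit class within each region. On simulated data with 200 genes changed by 1 log2 unit, the test recovered 100% for D2 minus D1 spiny (13958 genes, 6.54% of calls false), 92.5% for Sst minus Pvalb of motor cortex (8264 genes, 3.65%), 97.5% for interneurons between regions (12785 genes, 8.45%), 93.5% for late minus control in spiny projection neurons (17263 genes, 7.43%) and 100% for hemispheres in glutamatergic neurons (15206 genes, 4.31%). The changed genes were drawn only from those above a minimum mean level. All other genes were simulated without a difference, and no pool or kit effect was simulated. These rates thus do not describe genes near the floor or contrasts in which many genes differ. Intervals cover counting error only.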

Additional observations from a re-analysis of the deposited data

Results flagged for a closer look

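In 79 groups of 4 libraries of a region, class and stage, 2 held a library far from the other 3. The rule flags about 1 in 20 groups where the 4 values are independent. Here they are 2 hemisphere libraries from each of 2 pools, which differ in kit class for control and late, so that rate does not apply. Gabra3 in motor cortex interneuron-like cells was 4.91 in the contralateral library of late replicate 2 and 5.33 to 5.36 in the other 3. Gabrb1 in spiny projection neuron-like cells was 6.97 in the contralateral library of dorsal striatum early replicate 1 and 7.08 to 7.11 in the others.

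The difference between oligodendrocyte precursor-like and astrocyte-like cells itself differed between dorsal striatum and motor cortex for 4 members, by edgeR's interaction test. The gap was 2.14 for Gabra2 (SE 0.202, adjusted p = 1.42e-12), 3.15 for Gabra3 (SE 0.997, adjusted p = 0.0185), 0.91 for Gabra4 (SE 0.292, adjusted p = 0.0203) and 0.67 for Gabrb1 (SE 0.159, adjusted p = 0.00119). Gabra3 rests on 10 and 1 UMIs in astrocyte-like cells of motor cortex and dorsal striatum, and its call was lost with DESeq2 (2.75), with doublets kept (1.36) and without motor cortex control replicate 2 (2.29), dorsal striatum control replicate 2 (2.80) or dorsal striatum late replicate 2 (2.89). The Gabra4 call was lost with no filter on low counts (0.82), DESeq2 (0.90), stricter cells (0.83), kit class B pools only (0.77) and without motor cortex control replicate 2 (0.81) or dorsal striatum early replicate 2 (0.68).

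The difference between Sst-like and Pvalb-like interneurons differed between dorsal striatum and motor cortex for Gabra4 by -1.28 (SE 0.231, adjusted p = 2.18e-05 by edgeR), for Gabrb1 by 1.03 (SE 0.171, adjusted p = 5.32e-06) and for Gabrd by -2.79 (SE 0.395, adjusted p = 1.97e-07). Sst-like cells of dorsal striatum gave 9 Gabrd UMIs. The types of the same name differed in summed markers between regions. Lamp5 markers in Pvalb-like cells were 693 to 1156 CPM in dorsal striatum and 34.6 to 117 CPM in motor cortex. Sst markers in Sst-like cells were 53881 to 70146 CPM and 24157 to 34251 CPM. Their part in these gaps was not tested.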

How the results depend on the processing

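Of 110 called pairs of a member and a contrast, 83 kept call and direction in every alternative fitted, 26 lost the call in at least 1 and 1 changed sign: Gabra4, cycling progenitor minus neuroblast, at -0.53 with doublets kept. Without the pool block 21 of 95 calls between types were lost, and 20 of the 30 pairs between projection neuron types were called. Leaving out each pool in turn gave 28 to 31 calls between projection neuron types, 22 to 23 between motor cortex interneuron types, 34 to 36 between striatal neuron types, 7 to 8 between glia, 8 to 9 between regions, 5 to 8 for differences between regions and 0 to 0 between hemispheres. Between training stages it gave 0 to 1, with 1 call each without motor cortex control replicate 1 or late replicate 1, or without dorsal striatum control replicate 1, early replicate 2, late replicate 1 or late replicate 2.

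With a replicate block in place of the kit class, 8 pairs were called between regions and 0 between stages, as without it. The numbers follow accession order. Deviations of same-numbered pools correlated at 0.602 for control with late in motor cortex glutamatergic neuron-like cells and 0.792 in spiny projection neuron-like cells, where replicate 1 of both stages shares a flow cell and kit class. The other stage pairs gave -0.198 and 0.292, and -0.303 and -0.141. The contrast of Fezf2 Bcl11b layer 5-like cells was not run, having too few cells. With stricter cells 9 of 66 stage fits and 2 of 20 hemisphere fits were not made, and with at least 50 cells 1 striatal contrast. By the share of cells with a UMI, each of the 7 members was compared with microglia-like cells in 36 types. Pairs of a type and a member above the microglia range numbered 131, and 104 with cells thinned to 1000 UMIs. The same count was not made over all genes, so it does not show whether the members stand out from other genes. Depth limits members near the level of microglia-like cells, where a few UMIs decide.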
